A study of Homo sapiens with 2 samples.

Results

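Cathepsins are proteases that do most of their work in endosomes and lysosomes, and this account covers the 9 cathepsin genes CTSA, CTSB, CTSC, CTSD, CTSH, CTSL, CTSS, CTSV and CTSZ. They were taken by gene symbol from a deposited comparison of 27655 genes, and all 9 of the 9 symbols were found there. The cells were PC9-BrM3, a brain-metastatic derivative of the PC9 human lung adenocarcinoma line, in routine culture. The labels give a group with knockdown of PCDH1 (shPCDH1) and a control group (shNC, genotype WT), with 1 GEO sample each, both sequenced as poly-A RNA. The labels do not say how many hairpins or clones were used, nor that libraries came from separate cultures, so the p-values measure a spread that may be technical.

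In the authors' deposited table the 2 sides of the comparison carry only the code numbers 8 and 7. Since the labels do not link these numbers to shPCDH1 or shNC, every direction below is that of group 8 relative to group 7. PCDH1 itself had a log2 fold change of -1.38 ± 0.14 there, a level in group 8 of 38.5% of that in group 7, and this value was not used to name the groups. Library values under these codes were not used here, so neither levels nor depth are given. The number after each ± is a standard error worked back from the deposited p-value on the assumption of a Wald test, and intervals are the matching 95% intervals. A gene is named as called where the authors' adjusted p was under 0.05.

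Most cathepsins are cysteine proteases of the papain fold, while CTSD is an aspartic protease and CTSA a serine carboxypeptidase. They are made as inactive proenzymes, are mostly carried to lysosomes by mannose 6-phosphate receptors and mature in the acidic lumen. Cystatins block the cysteine members. In tumors, secreted cathepsins can also cut matrix and cell-cell adhesion proteins, and in brain metastasis models cathepsin S has been tied to passage across the blood-brain barrier.

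The 9 cathepsins did not move together. In the authors' deposited table CTSS was called higher in group 8, CTSC, CTSD and CTSB were called lower, and CTSV, CTSH, CTSZ, CTSL and CTSA were not called. That is 11.1% of members called higher and 33.3% called lower. Among all 27655 genes 6.78% were called higher and 7.28% lower, and among the 18002 genes with an adjusted p below 1, to which all 9 cathepsins belong, 10.4% were called higher and 11.2% lower. The members' median log2 fold change was -0.20, against 0.0013 over all genes. A set of 9 genes allows no reading of these shares beyond the named genes.

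**Figure D1:**
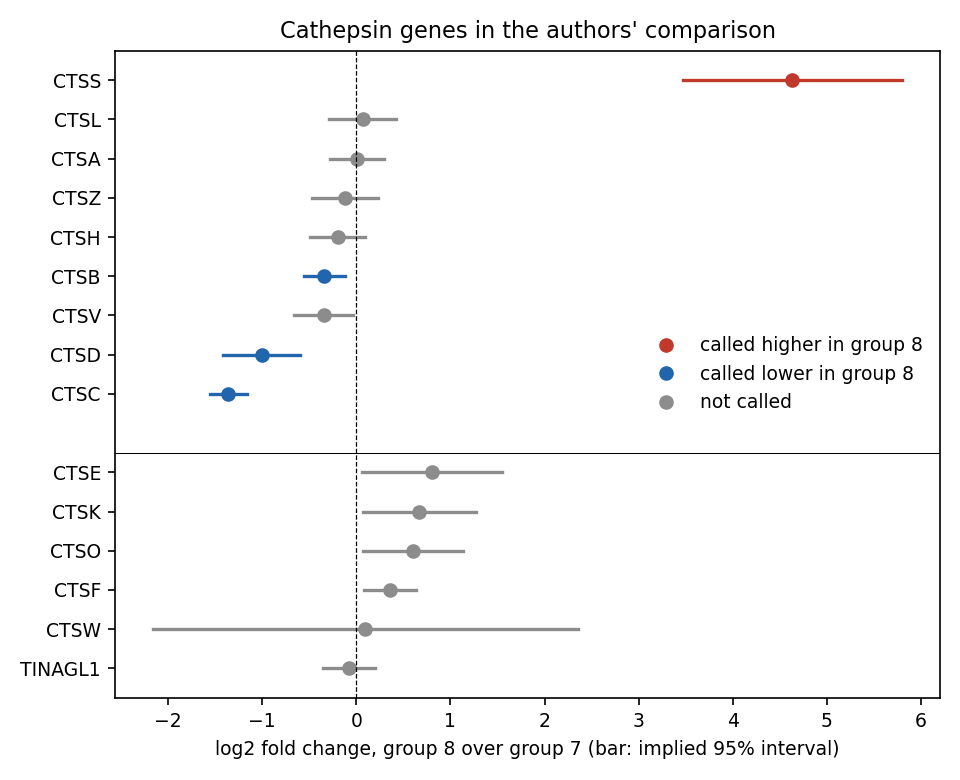
Log2 fold change of group 8 over group 7 (x axis) for the 9 cathepsins (above the line) and 6 other genes of the family (below it), as points with their implied 95% intervals. CTSS stands alone at 4.63, and CTSC and CTSD lie at -1.36 and -1.01.

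CTSS encodes cathepsin S, a cysteine protease that stays active at neutral pH and trims the invariant chain of MHC class II molecules in antigen-presenting cells (ENSG00000163131, chromosome 1, 150730196 to 150765957, minus strand). Its deposited log2 fold change was 4.63 ± 0.60, with an interval of 3.47 to 5.80 and an adjusted p of 7.02e-13. On the linear scale CTSS was 24.8-fold higher in group 8, with an interval of 11.0 to 55.7. It ranked 29 by size among the 1875 genes called higher. The size was loosely fixed, and only 20.6% of genes with an adjusted p below 1 had a larger implied error. None of its exon bases lay under an exon of another gene, and 1.34% of its words of 50 bases recurred in transcripts of other genes.

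CTSC had the most precise change of the family. It encodes the dipeptidyl peptidase that activates granule serine proteases of immune cells (ENSG00000109861, chromosome 11, 88293592 to 88337787, minus strand). The authors' deposited table gave it -1.36 ± 0.10 and an adjusted p of 9.47e-38, rank 27 by p-value among all genes. Group 8 held 39.0% of the group 7 level of CTSC, a 2.57-fold lower value. The implied error was smaller than that of 99.8% of genes with an adjusted p below 1, and no exon base was shared with another gene.

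CTSD, the main lysosomal aspartic protease, was called lower at -1.01 ± 0.21 with an adjusted p of 2.38e-05 (ENSG00000117984, chromosome 11, 1752752 to 1764573, minus strand). This places group 8 at 49.8% of group 7, with a log2 interval of -1.41 to -0.60. The locus is crowded, and 52.7% of the exon bases of CTSD lie under exons of AC068580.4, a protein-coding gene on the same strand, or of the antisense gene AC068580.3. The library protocol does not mark strand, so reads shared with AC068580.3 cannot be assigned to a gene by strand. Reads shared with AC068580.4 could not be so assigned in any case, since it lies on the strand of CTSD. In the authors' deposited table AC068580.4 had -0.47 ± 0.62 and AC068580.3 -1.34 ± 0.60, neither called, and their part in the CTSD value was not tested.

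CTSB, a cysteine protease that acts inside chains and at their carboxyl ends, was called lower by a smaller step (ENSG00000164733, chromosome 8, 11842524 to 11869448, minus strand). Its log2 fold change was -0.34 ± 0.11 with an adjusted p of 0.0131, so that group 8 stood at 78.9% of group 7. CTSV, a close relative of CTSL (ENSG00000136943, chromosome 9, 97029679 to 97039643, minus strand), had nearly the same value at -0.35 ± 0.16 but an adjusted p of 0.111. The pair is separated by the error and not by the size of the difference, so the call on CTSB does not show that it moved more than CTSV.

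The other 4 members lay nearer to 0 in the authors' deposited table. CTSH, an aminopeptidase that also processes surfactant protein precursors in the lung, had -0.20 ± 0.15 with an interval of -0.49 to 0.092. CTSZ, a carboxypeptidase also called cathepsin X, had -0.12 ± 0.18 with an interval of -0.47 to 0.23. CTSL, a strong endopeptidase of the lysosome, had 0.069 ± 0.18 with an interval of -0.29 to 0.42. CTSA, the carboxypeptidase that holds a galactosidase and a sialidase in a stable complex, had 0.0087 ± 0.15 with an interval of -0.28 to 0.30. Adjusted p-values ran from 0.378 for CTSH to 0.978 for CTSA, and the intervals leave room for changes of up to 0.49 (log2) in size.

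Read sharing bears on CTSA too, since 28.5% of its exon bases lie under exons of NEURL2, PLTP or AL008726.1. Those genes had deposited values of 1.38 ± 0.96, 0.15 ± 0.15 and 1.24 ± 3.14, none called. CTSB, CTSC, CTSH, CTSL, CTSS, CTSV and CTSZ shared no exon bases with other genes. The related pair CTSL and CTSV had 0.641% and 0.383% of their words of 50 bases in transcripts of other genes, so near-identical copies cover little of either.

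**Figure D2:**
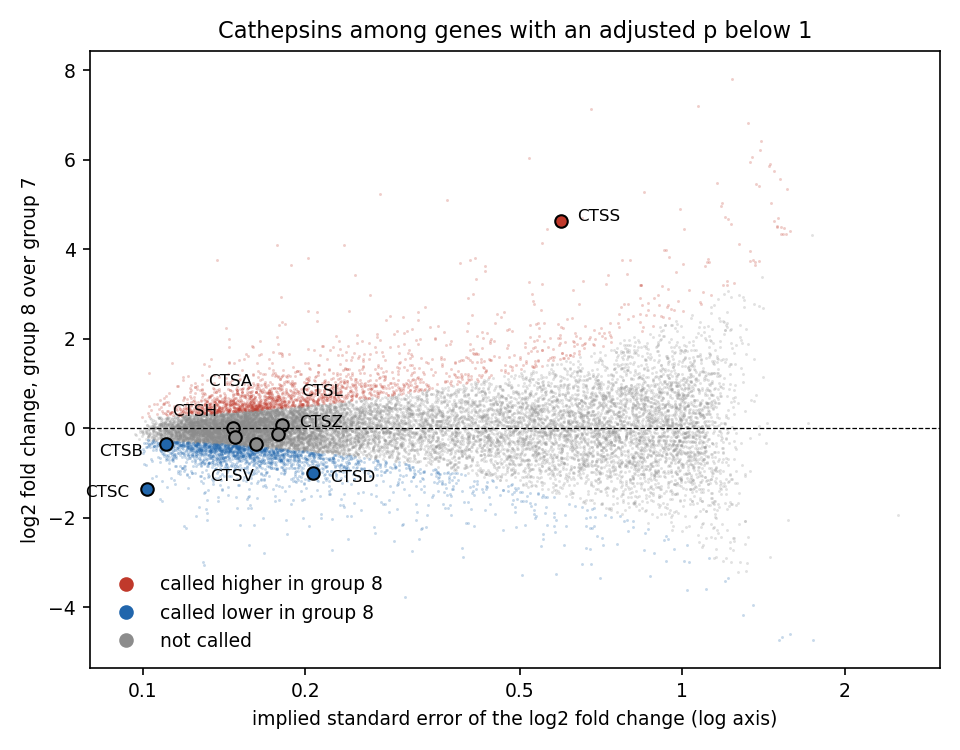
Log2 fold change of group 8 over group 7 (y axis) against its implied standard error (x axis, log scale) for the 18002 genes with an adjusted p below 1, with the 9 cathepsins outlined and labelled. CTSC and CTSB sit at the precise edge with errors of 0.10 and 0.11, and CTSS lies far from the other members with an error of 0.60.

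Promoters from RefSeq (GRCh38.p14) were matched for 7 of the 9 members, CTSA, CTSC, CTSD, CTSH, CTSL, CTSV and CTSZ. Each runs from 250 bases before the RefSeq gene start to 50 bases after it. RefSeq starts differ from the outermost starts in the deposited table: they lie further into the gene by 4528 bases for CTSH, 1191 for CTSA, 646 for CTSD, 600 for CTSL, 501 for CTSV and 51 for CTSC. The CTSZ start lies 7 bases before the deposited one, and the windows of CTSH, CTSA, CTSD, CTSL and CTSV fall wholly inside the deposited gene. CACGTG, the core of the element through which TFEB and its relatives bind lysosomal genes, is its own reverse complement and was searched on both strands. It was found in 7.26% of all 35116 promoters and in those of CTSA and CTSD among the 7. The pair is shown because CTSD was called lower and CTSA was not called, although both promoters hold the word. Capitals mark CACGTG, and in CTSA also the longer form TCACGTGA that contains it, found in 0.980% of all promoters. CTSD lies at chr11:1763878-1764177 on the minus strand and CTSA at chr20:45891085-45891384 on the plus strand.
CTSD: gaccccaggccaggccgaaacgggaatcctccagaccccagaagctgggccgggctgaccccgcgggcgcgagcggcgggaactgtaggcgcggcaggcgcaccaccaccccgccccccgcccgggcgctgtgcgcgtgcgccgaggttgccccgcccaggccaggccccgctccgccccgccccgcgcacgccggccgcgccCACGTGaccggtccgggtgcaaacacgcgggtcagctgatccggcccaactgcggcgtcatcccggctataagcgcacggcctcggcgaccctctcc
CTSA: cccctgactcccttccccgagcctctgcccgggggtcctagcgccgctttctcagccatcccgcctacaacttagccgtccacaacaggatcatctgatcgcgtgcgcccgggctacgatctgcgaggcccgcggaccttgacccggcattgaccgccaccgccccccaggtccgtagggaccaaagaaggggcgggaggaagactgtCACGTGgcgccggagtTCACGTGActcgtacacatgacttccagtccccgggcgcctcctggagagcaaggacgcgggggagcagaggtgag

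CACGTG begins at base -47 of CTSD, and at -42 and -25 of CTSA, counted from the RefSeq gene start. No promoter was matched for CTSS or CTSB, so neither was searched. TTCNNTTTC, the core of the interferon response element, was searched on both strands. It occurs in 8.11% of all promoters but in none of the 7 windows. These matches describe letters only.

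CTSL and CTSV, both on chromosome 9, share the longest run between any of the 21 pairs of these promoters, 23 bases, against 13 for the next pair. It is found in these 2 promoters and in no other of the 35116. The stretches around it are shown to let the likeness of these related genes be seen, with the shared run in capitals. CTSL is chr9:87725963-87726105 on the plus strand and CTSV is chr9:97039146-97039288 on the minus strand.
CTSL: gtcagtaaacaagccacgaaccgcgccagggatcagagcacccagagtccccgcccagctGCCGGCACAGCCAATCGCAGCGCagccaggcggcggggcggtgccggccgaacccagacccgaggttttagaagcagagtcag
CTSV: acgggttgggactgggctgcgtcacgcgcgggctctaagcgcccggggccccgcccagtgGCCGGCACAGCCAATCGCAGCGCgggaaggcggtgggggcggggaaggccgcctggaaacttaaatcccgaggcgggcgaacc

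The shared run holds CCAAT, a common promoter element, and lies at bases -96 to -74 of CTSL and -86 to -64 of CTSV. The deposited log2 fold changes of the pair were the 0.069 ± 0.18 (CTSL) and -0.35 ± 0.16 (CTSV) given above, neither called.

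Of 8 further genes of the family, 6 were in the table and 0 were called in either direction. Over all genes 6.78% were called higher and 7.28% lower, and a set of 6 genes allows no reading of this count. The unadjusted p was under 0.05 for 4 of the 6, all with positive values. The share of all genes at that unadjusted p was not computed. CTSF, a broadly expressed cysteine cathepsin, had 0.35 ± 0.14 with an adjusted p of 0.0530. CTSO had 0.60 ± 0.27 with 0.0933, CTSK, the collagen-degrading cathepsin of osteoclasts, 0.67 ± 0.31 with 0.104, and the aspartic protease CTSE 0.80 ± 0.38 with 0.119. CTSW, a cathepsin of cytotoxic lymphocytes, had 0.096 ± 1.15 and TINAGL1, an inactive relative, -0.082 ± 0.14. With an adjusted p threshold of 0.10, CTSF and CTSO were called higher, and the share of all genes there was not computed.

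CTSS has its relative CTSK as a close neighbour. CTSK lies 30.25 kb upstream of CTSS on the same strand, followed by ARNT at 43.7 kb, and GOLPH3L lies 33.1 kb downstream. ARNT, a partner of hypoxia and dioxin sensing factors, had a deposited 0.70 ± 0.14 with an adjusted p of 8.59e-06, and GOLPH3L, a Golgi protein, 0.63 ± 0.15 with 0.000423, both called higher. All 3 neighbours had positive values of 0.63 to 0.70, far below the 4.63 of CTSS. Next to CTSD, the noncoding gene AC068580.2 lies 12.4 kb upstream and was called lower at -1.36 ± 0.43 with an adjusted p of 0.0115. The gene AC068580.1, which lies inside CTSD, had 0.011 ± 0.66 and was not called.

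**Figure D3:**
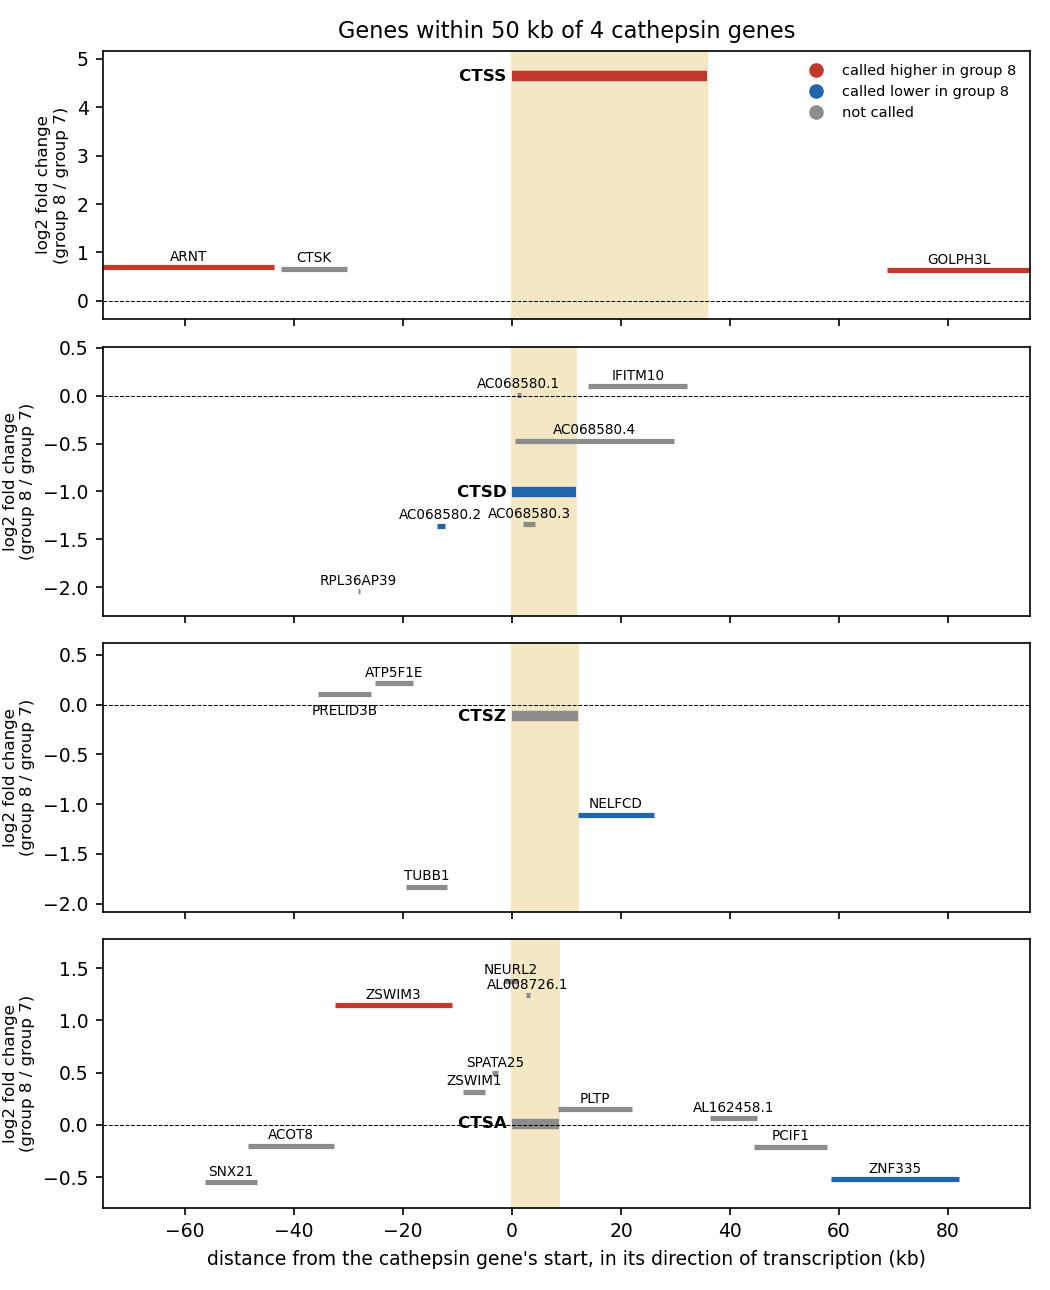
Log2 fold change of group 8 over group 7 (y axis) of genes within 50 kb of CTSS, CTSD, CTSZ and CTSA, drawn as bars at their distance from the start of the cathepsin gene (x axis, kb). CTSS stands at 4.63 above neighbours at 0.63 to 0.70, while NELFCD at -1.11 lies beside CTSZ at -0.12.

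Of 16 listed cystatins and serpins, 11 were in the authors' deposited table, with 2 called higher, 2 called lower and a median of 0.30. Each count is 18.2% of the list, beside 6.78% higher and 7.28% lower over all genes, and both counts were 0 at an adjusted p under 0.01. CST3, the secreted cystatin C, was called lower at -0.37 ± 0.12 with an adjusted p of 0.0155, and CSTB, the cytosolic cystatin B, at -0.42 ± 0.16 with 0.0369. SERPINB1, an inhibitor of granule serine proteases, was called higher at 0.38 ± 0.12 with 0.0131, and SERPINB4 at 3.75 ± 1.39 with 0.0350. SERPINB4 is nearly identical to SERPINB3, which inhibits CTSS and CTSL, so their split is uncertain. SERPINB3 had 4.93 ± 1.66 with an adjusted p of 1, although its deposited p-value of 0.00293 was below the 0.00682 of SERPINB4. That adjusted value does not follow from the order of the p-values, so it may stand for a gene left out of the adjustment. The authors' filters are not stated. With Benjamini-Hochberg adjustment over protein-coding genes, 3 genes of the list were called higher. CSTA, or cystatin A, had 2.47 ± 1.04 and an adjusted p of 0.0719.

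Other peptidases and lysosomal enzymes were read beside the cathepsins. Among 9 peptidases in the authors' deposited table, which include cell-surface and cytosolic ones, 3 were called higher (33.3%) and 2 lower (22.2%), beside 10.4% and 11.2% of genes with an adjusted p below 1, with a median of 0.21. The 4 with the smallest adjusted p were DPP4, a cell-surface peptidase, at 2.23 ± 0.54, NAPSA, the aspartic protease napsin A of lung epithelium, at 2.47 ± 0.62, PEPD, a cytosolic prolidase, at -0.49 ± 0.13, and PRCP, a lysosomal carboxypeptidase, at 0.42 ± 0.13. LGMN, the legumain that processes several cathepsins, had -0.018 ± 0.14. Among 33 glycosidases, sulfatases, lipases and their helpers, 5 were called higher (15.2%) and 6 lower (18.2%), with a median of 0.11. Among genes with an adjusted p below 1, as 32 of these 33 have, the shares are 10.4% and 11.2%. The ganglioside activator GM2A had 0.97 ± 0.12 and the sterol carrier NPC2 -0.85 ± 0.11. NEU1, the sialidase held in the CTSA complex, had 0.71 ± 0.15, while GLB1, the galactosidase of the same complex, had -0.072 ± 0.12 with no call. LIPA, the acid lipase, had -0.63 ± 0.14.

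Of 24 lysosomal membrane and proton pump genes, 4 were called higher (16.7%) and 1 lower (4.17%) in the authors' deposited table, with a median of 0.022. All of them had an adjusted p below 1, where 10.4% of genes were called higher and 11.2% lower. OSTM1 and CLCN7, which form a chloride transporter together, went opposite ways at 0.79 ± 0.17 and -0.35 ± 0.13. ATP6V0E1, a proton pump subunit, had 0.52 ± 0.13 and NPC1, the cholesterol exporter, 0.49 ± 0.13. Of 12 genes of mannose 6-phosphate sorting, 0 were called higher and 3 lower (25%), with 4 values positive, 8 negative and a median of -0.21. An unadjusted p under 0.05 was found for 5, and the share of all genes at that p was not computed. The receptors M6PR and IGF2R had -0.17 ± 0.13 and 0.25 ± 0.12, neither called, and IGF2R was among those 5. The called genes were AP1M1, an adaptor subunit, at -0.57 ± 0.14, GNPTG, a subunit of the tagging enzyme, at -0.50 ± 0.19, and NAGPA, which uncovers the tag, at -0.47 ± 0.17. TFEB, TFE3 and MITF, factors that switch on lysosomal genes, had -0.048 ± 0.28, -0.040 ± 0.18 and -0.048 ± 0.13, and TFEC had 2.90 ± 1.92, with 0 of the 4 called and 0 at an unadjusted p under 0.05.

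**Figure D4:**
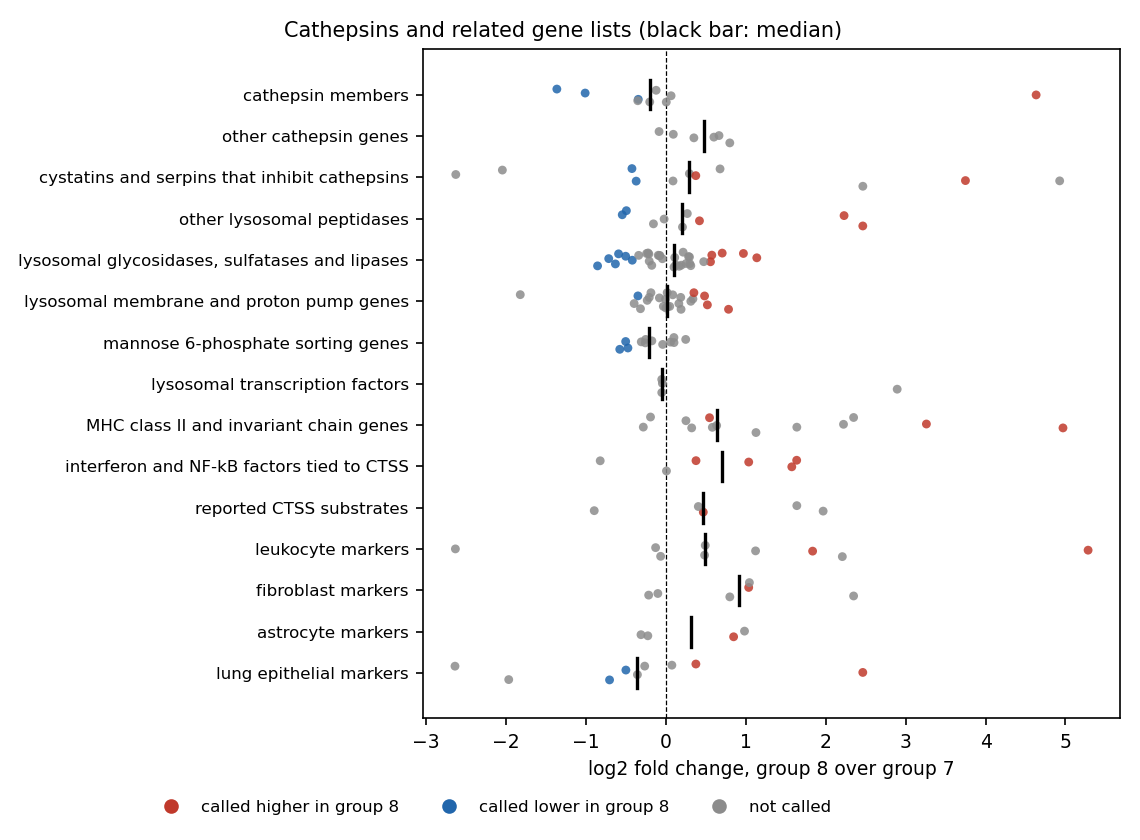
Log2 fold change of group 8 over group 7 (x axis) of each gene in the 9 cathepsins and 14 related lists (rows), coloured by call, with the median of each list as a black bar. Lysosomal lists spread to both sides of 0, as does the list of interferon and NF-kB factors. Among called genes alone, those factors lie to the right of 0 and the mannose 6-phosphate sorting genes to the left.

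Of 16 listed genes linked to CTSS in antigen presentation, 13 were in the authors' deposited table. These gave 3 higher calls (23.1%) and 0 lower, beside 6.78% and 7.28% of all genes. Their median of 0.64 includes 5 genes with an adjusted p of 1. HLA-DQB1 and HLA-DRB1, class II beta chains, had deposited values of 3.26 ± 0.52 and 4.97 ± 1.18, and RFX5, a class II promoter factor, 0.55 ± 0.13. HLA genes share reads between family members and alleles, which leaves the size of both uncertain. Of the class II alpha chains, HLA-DQA1 had 2.35 ± 3.75 and HLA-DMA 0.64 ± 0.26 with an adjusted p of 0.0585, neither called. HLA-DRA, HLA-DPA1 and HLA-DOA were not in the table. The other listed beta chains, HLA-DPB1, HLA-DMB and HLA-DOB, had 2.22 ± 3.89, 1.13 ± 2.14 and 0.25 ± 0.45, none called. CD74, the invariant chain cut by cathepsin S, had 1.64 ± 4.04 with an adjusted p of 1, and CIITA, the class II master regulator, 0.58 ± 0.38 with 0.302. Of the 5 reported substrates of cathepsin S, only F2RL1, a protease-activated receptor, was called, at 0.47 ± 0.13 with an adjusted p of 0.00225. JAM2, a junction protein, had -0.89 ± 1.69, the chemokine CX3CL1 0.41 ± 1.71 and elastin, ELN, 1.97 ± 1.53. The errors of CD74, JAM2, CX3CL1 and ELN are too wide to tell a large change from none.

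Of 6 interferon and NF-kB factors described here from the authors' deposited table, 4 were called higher (66.7%) and 0 lower, with a median of 0.71. Beside these counts stand 6.78% and 7.28% of all genes. Among genes with an adjusted p below 1, as all but IRF8 have, the shares are 10.4% and 11.2%. A set of 6 genes chosen with earlier results known allows no reading of these shares. IRF1, an interferon-induced factor known to act at the CTSS promoter, had 1.64 ± 0.21, IRF2 1.04 ± 0.15, RELB, an NF-kB subunit, 1.58 ± 0.25 and NFKB1, another subunit, 0.38 ± 0.13. RELA had 0.011 ± 0.13 and IRF8, a factor of blood cells, -0.82 ± 2.57, neither called. The part of these factors in the CTSS value was not tested, and no CTSS promoter was matched.

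CTSS is abundant in myeloid cells, so markers of other cell types were read beside it. Of 14 leukocyte markers, 9 were in the authors' deposited table, with 2 called higher (22.2%), 0 lower and a median of 0.50, beside 6.78% and 7.28% of all genes called. ITGAM, a myeloid integrin, had 5.28 ± 0.85 and CSF1R, the receptor of macrophage growth factor, 1.84 ± 0.24. PTPRC, the pan-leukocyte marker, had -0.12 ± 0.69, CD14 -0.062 ± 0.50 and CD68 0.50 ± 1.49, none called. Levels of these markers were not analysed here, and their part in the CTSS value was not tested. Of 8 listed fibroblast markers, 6 were in the table, which lacks COL1A2 and LUM. Of these 6, 1 was called higher, the collagen gene COL1A1 at 1.04 ± 0.17. The other 5, COL3A1, DCN, PDGFRB, FAP and THY1, all had an adjusted p of 1 and implied errors of 1.58 to 3.75. Of 6 listed astrocyte markers, 4 were in the table, which lacks AQP4 and S100B. Of these 4, 1 was called higher, the glutamate transporter SLC1A3 at 0.85 ± 0.18. GFAP had -0.22 ± 2.42, ALDH1L1 -0.31 ± 0.20 and SLC1A2 0.99 ± 0.90, none called. Of 9 lung epithelial markers 2 were called higher and 2 lower, with 3 values positive, 6 negative and a median of -0.35. The called genes were NAPSA as above, CDH1 at 0.38 ± 0.11, KRT7 at -0.70 ± 0.15 and KRT18 at -0.50 ± 0.17. EPCAM had 0.079 ± 0.10 with no call.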

How the data were processed

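PC9-BrM3 cells were sequenced as poly-A RNA with 1 GEO sample per group. Per the submitters' processing notes, the tools were DESeq2 1.20.0, featureCounts 1.5.0-p3, HISAT2 2.0.5 and CASAVA, with no roles or parameters given. Build and annotation are named in no source used here, but all 27655 identifiers and names match GENCODE 29 (GRCh38), and the 9 cathepsins have the same positions there.

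Per the file headers, the deposited table holds a log2 fold change of group 8 over group 7, a p-value and an adjusted p-value for each gene, all made by the authors. Their test, scaling and filters are not stated. The 20 columns with values per library or coded group were not used, because no label ties their codes to a sample, so depth per sample is not given and no model was fitted.

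Each standard error is the size of the log2 fold change over the two-sided normal z of its p-value. The arithmetic was checked on simulated Wald p-values, and whether the deposited p-values come from a Wald test was not tested. The 9 members and 14 lists were chosen with earlier results of these data known. Lists are described by counts and medians, and 1 gene of the interferon and NF-kB list is not reported here or counted. All members were named, as were all genes in the table from lists of 8 or fewer. Of longer lists, up to 4 called genes with the smallest adjusted p were named. Overlapping genes, called neighbours within 50 kb, defining leukocyte markers and PCDH1 were also named. SERPINB3, CSTA, LGMN, GLB1, M6PR, IGF2R, CIITA, HLA-DQA1, HLA-DMA, HLA-DPB1, HLA-DMB, HLA-DOB and EPCAM fall outside this rule and were chosen after their values were seen. Exon overlap and words of 50 bases used GENCODE 29. The alternatives were other thresholds, minimum fold changes, adjustments and a centring. Python 3.11.15, numpy 2.4.6, pandas 2.3.3, scipy 1.17.1 and matplotlib 3.10.9 were used.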

Additional observations from a re-analysis of the deposited data

How the results depend on the processing

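CTSS, CTSC and CTSD kept their call under all 7 other calling rules, CTSD only narrowly at the minimum of 1, with -1.006. All rules use the same deposited log2 fold changes, so no direction could change under them. Centring on the protein-coding median of 0.0048 (log2) could change no sign either. That shift is smaller than the 0.0087 of CTSA, the smallest value of any member. CTSB, at -0.34, lost its call at an adjusted p under 0.01, with minimum log2 fold changes of 0.5 and of 1, and under Bonferroni adjustment, where its adjusted p was 1. It kept the call with Benjamini-Hochberg adjustment over every deposited p (0.0201) and over protein-coding genes (0.0123). No other member gained a call. Of the 149 distinct genes of the 14 related lists in the table, 27 were called higher and 16 lower. Beside these counts stand 6.78% and 7.28% of all genes, and 10.4% and 11.2% of genes with an adjusted p below 1. The lower count was 8 at an adjusted p under 0.01, 7 with a minimum of 0.5, 0 with a minimum of 1 and 1 under Bonferroni adjustment. The higher count was 12 with a minimum of 1 and 8 under Bonferroni adjustment. Shares over all genes were not computed at these other settings. No paired analysis was possible because no library columns were used. Without library values, neither levels, depth nor single libraries that decide a value could be examined, and an implied error assumes the authors used a Wald test.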

Other observations

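Around the 9 cathepsins, 34 other genes lay within 50 kb, of which 4 (11.8%) were called higher and 3 (8.82%) lower in the authors' deposited table, beside 6.78% and 7.28% of all genes and 10.4% and 11.2% of genes with an adjusted p below 1, and 0 of the 7 that overlap a cathepsin gene were called. NELFCD, a subunit of the complex that pauses transcribing polymerase, ends 51 bases from the end of CTSZ on the opposite strand. It was called lower at -1.11 ± 0.10 with an adjusted p of 5.34e-24, beside -0.12 ± 0.18 for CTSZ. FDFT1, the squalene synthase of cholesterol synthesis, lies 3.21 kb from CTSB and was called higher at 0.55 ± 0.11 with an adjusted p of 5.37e-06, whereas CTSB was called lower at -0.34 ± 0.11. AC025857.2, which lies inside CTSB, had 0.027 ± 1.13 and an adjusted p of 1. Near CTSA, ZSWIM3 was called higher at 1.14 ± 0.24 and ZNF335 lower at -0.52 ± 0.16, with adjusted p-values of 4.24e-05 and 0.00874. Whether the difference between such neighbours exceeds their joint error was not tested.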
